A study of Mus musculus with 12 samples.

Results

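The transcripts described here are those of 10 immediate early and related transcription factors, chosen by gene symbol from the count tables: the AP-1 genes Fos, Fosb, Fosl2, Jun, Junb, Jund and Batf, and the Egr genes Egr1, Egr2 and Egr3. All 10 were found among the 24421 symbols, and all 10 passed the filter on low counts, as did 11727 genes in all. They were measured in CD8+ T cells, the cytotoxic lymphocytes, obtained from the spleen of C57BL/6 mice, a common inbred strain. Of 12 libraries of polyadenylated RNA, 6 came from cells given an inhibitor of EZH2 (EZH2i) and 6 from cells given DMSO. EZH2 carries the methyltransferase activity of Polycomb repressive complex 2, which marks silenced genes on histone H3, and DMSO is the usual solvent for such drugs. The sources used here do not give which inhibitor was used, at what dose or for how long, whether the cells were stimulated, or the age and number of the mice. The comparison asks which transcripts differ when EZH2 is inhibited.

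AP-1 is a family of dimers of basic leucine zipper proteins, in which a Jun protein pairs with a Fos protein, with Batf or with another Jun. The Egr proteins are zinc finger factors that bind GC-rich sites. In T cells, signals from the antigen receptor pass through Ras, the MAP kinases and calcium, and raise Fos, Jun and Egr transcripts quickly and for a short time, before any new protein has to be made. AP-1 cooperates with NFAT factors at cytokine genes of activated T cells, Batf and Jun proteins bind together with Irf4, and Egr2 and Egr3 are known for restraining T cell activation.

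The upstream sequences of the members that the results turn on are shown first. RefSeq promoter sequences of build GRCm38.p6 were matched by symbol for 8 of the 10 genes. The 250 bases before a RefSeq start, which for Fosl2 and Egr2 is not the first base of the gene in the annotation used for coordinates below, are given for Fosl2 and Jun, whose transcripts rose, and for Fos and Egr2, whose transcripts were far lower in 1 library of each group. Each is written 5′ to 3′ on the strand of its gene, and capitals mark a motif match.
Fosl2, chr5:32136222-32136471, plus strand, with an Egr site in capitals: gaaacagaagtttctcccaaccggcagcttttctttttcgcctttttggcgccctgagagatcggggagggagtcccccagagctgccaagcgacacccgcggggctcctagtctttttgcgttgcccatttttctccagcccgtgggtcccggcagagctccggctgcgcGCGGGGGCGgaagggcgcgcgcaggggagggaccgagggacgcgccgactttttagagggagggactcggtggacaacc
Jun, chr4:95052223-95052472, minus strand, with an AP-1-like element in capitals: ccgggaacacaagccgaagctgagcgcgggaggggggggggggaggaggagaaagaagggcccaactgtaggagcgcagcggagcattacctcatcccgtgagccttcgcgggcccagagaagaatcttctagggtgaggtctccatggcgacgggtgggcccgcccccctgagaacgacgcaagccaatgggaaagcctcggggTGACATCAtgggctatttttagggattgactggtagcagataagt
Fos, chr12:85473640-85473889, plus strand, with a TATA box in capitals: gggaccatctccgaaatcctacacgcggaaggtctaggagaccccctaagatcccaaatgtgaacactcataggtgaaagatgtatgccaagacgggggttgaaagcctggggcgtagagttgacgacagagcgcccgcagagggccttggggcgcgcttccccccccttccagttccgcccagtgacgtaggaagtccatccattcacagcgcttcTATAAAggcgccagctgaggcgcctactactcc
Egr2, chr10:67537619-67537868, plus strand, with a CArG box in capitals: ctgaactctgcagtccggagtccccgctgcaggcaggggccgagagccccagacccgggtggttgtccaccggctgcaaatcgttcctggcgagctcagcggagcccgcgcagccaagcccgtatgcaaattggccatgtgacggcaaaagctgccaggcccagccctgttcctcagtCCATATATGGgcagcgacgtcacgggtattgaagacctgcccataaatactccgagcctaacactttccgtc

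Both strands were searched for the Egr site GCGNGGGCG, the AP-1 site TGANTCA, the cyclic AMP response element TGACGTCA, the TATA box TATAAA and the CArG box, the element that serum response factor binds. The AP-1-like element TGACATCA and the CRE-like element TGACGTTT were added after the first search. None of the 8-letter elements contains the AP-1 site, so no match was counted under both. Of 32851 promoter windows of the same length, 4.7% held the Egr site, 6.75% the AP-1 site, 1.55% the cyclic AMP response element, 12.4% the TATA box, 1.47% the CArG box, 2.93% the AP-1-like element and 0.344% the CRE-like element. The window of Fosl2 held its Egr site at bases -79 to -71 from the start, and that of Jun its AP-1-like element at -45 to -38. The TATA box of Fos lay at -33 to -28 and the CArG box of Egr2 at -72 to -63. Egr2 has 5 RefSeq starts, and the window of the third is shown. The window of the first start, at 67535499, held none of these motifs, and that of the second held another CArG box. The windows of the remaining starts overlap that of the third and held the same CArG box. Fosb held an Egr site and Batf a CRE-like element, and the windows of Junb and Jund held none of these motifs. The Jund window ended at base 70697738, upstream of the gene start at 70698949 given below. The bases just before that gene start were not searched. For every gene, Fos included, bases beyond these windows were not searched either. A match describes the letters of the window and is not evidence of binding.

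Libraries held 19610258 to 31206228 counts in EZH2i and 17215483 to 28092434 in DMSO. Nothing in the labels ties each library to its own mouse or culture, so p-values here rest on library-to-library spread that may be technical. The libraries numbered 6 stood apart from the other libraries of their group, at -23.3 against 28.3 to 35.7 in EZH2i and at -64.1 against -20.1 to -9.58 in DMSO on the first principal component, which held 45.2% of the variance. Results that rest on them are given with and without them. All 6 markers of CD8 T cells were abundant, with sums of 2420 to 3697 CPM in EZH2i and 3402 to 4573 CPM in DMSO, where CPM are counts scaled to the TMM-adjusted library total. Of these, 3 were called lower in EZH2i by edgeR, each in 6 of 6 same-numbered pairs: Cd2 (log2 fold change -0.60, adjusted p = 0.00395), Cd3g (-0.37, adjusted p = 0.0488) and Cd8a (-0.30, adjusted p = 0.00129). Summed markers of B cells reached 14.8 to 21.8 CPM in EZH2i and 19.2 to 25.2 CPM in DMSO, and those of macrophages and monocytes 6.38 to 18.5 CPM in EZH2i and 4.29 to 10.8 CPM in DMSO. NK cell markers summed to 29.4 to 79.99 CPM in EZH2i and 2.44 to 6.30 CPM in DMSO. The NK marker Klra8 was at 0 in every library, and Ncr1 averaged 0.0455 CPM in each group. Gzma and Klrb1c rose (log2 fold changes 3.10 and 2.59, edgeR adjusted p = 5.82e-05 and 8.77e-05). On average, most of the NK sum was Gzma, at 36.4 ± 17.1 CPM in EZH2i and 4.21 ± 1.65 CPM in DMSO. Sums were 0.991 to 2.99 CPM in EZH2i and 0.0595 to 1.25 CPM in DMSO for dendritic cells, 23.8 to 34.8 CPM in EZH2i and 17.4 to 23.0 CPM in DMSO for CD4 T cells, and 61.2 to 184 CPM in EZH2i and 88.7 to 196 CPM in DMSO for stromal and endothelial cells. Most of that last sum was Pecam1, at 146 ± 43.5 CPM in EZH2i and 163 ± 37.9 CPM in DMSO, while Pdgfrb rose (2.92, edgeR adjusted p = 0.000266). Col1a1 was not called (1.13, edgeR adjusted p = 0.0831). Cdh5 averaged 0.134 CPM in EZH2i and 0.469 CPM in DMSO, and Col1a2 at most 0.0674 CPM in either group. The macrophage marker Itgam (1.28, adjusted p = 0.0112), the dendritic cell marker Itgax (1.91, adjusted p = 0.00726) and the CD4 T cell marker Zbtb7b (0.60, adjusted p = 0.00654) also rose. Each was the only marker called of its list, of 6, 5 and 4 listed. Cd68 (-0.28, edgeR adjusted p = 0.503) and Foxp3 (0.38, adjusted p = 0.267) were not called. Lyz2, Csf1r, Adgre1 and Cd14 averaged at most 0.283 CPM in either group. Xcr1, Siglech, Flt3 and Clec9a averaged at most 0.135 CPM, and Cd4 and Cd40lg at most 0.144 CPM. The 4 neutrophil markers used reached at most 0.173 CPM in EZH2i and 0.277 CPM in DMSO, and the erythroid markers Hba-a1, Hbb-bs and Alas2 were at 0 in every library. The part of other cell types in the results below was not tested. In bulk RNA, fewer cells of a type and less RNA per cell cannot be told apart.

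With EZH2i, transcripts of Fosl2 and Jun rose, and those of the other 8 members did not pass the test. Fosl2 averaged 33.0 ± 4.88 CPM in EZH2i and 12.9 ± 1.93 CPM in DMSO, and Jun 77.0 ± 7.28 CPM in EZH2i and 48.5 ± 12.6 CPM in DMSO (SD, n = 6 each). Among the members, Fos, Egr1 and Egr2 had the largest SD of log2 CPM between the libraries of a group, in both groups. The libraries numbered 6 were the lowest of both groups for 7 of 10 members, these 3 with Fosb, Junb, Batf and Egr3. Over all genes, the quasi-likelihood test of edgeR, with Benjamini-Hochberg adjusted p-values and a call under 0.05, called 19.3% of tested genes, 13.3% higher in EZH2i and 6.05% lower. Of these calls 68.7% were higher in EZH2i, against 83.8% of the calls under upper-quartile scaling. A share of 13.3% of 10 genes lies between 1 and 2 genes, so the 2 members called higher and 0 called lower are near that background as a count. At an unadjusted p under 0.05, which 32.4% of all tested genes passed, 2 members were higher and 1, Batf, was lower. DESeq2 called Batf lower at its adjusted p, beside 9.59% of all tested genes, and limma-voom called 0 members lower. A fit with replicate number as a block called 49% of all genes, and one without both libraries numbered 6 called 44.8%. In each of these, 3 members were higher and 1 was lower. The median log2 fold change was -0.03 over the members and -0.01 over all genes tested.

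**Figure D1:**
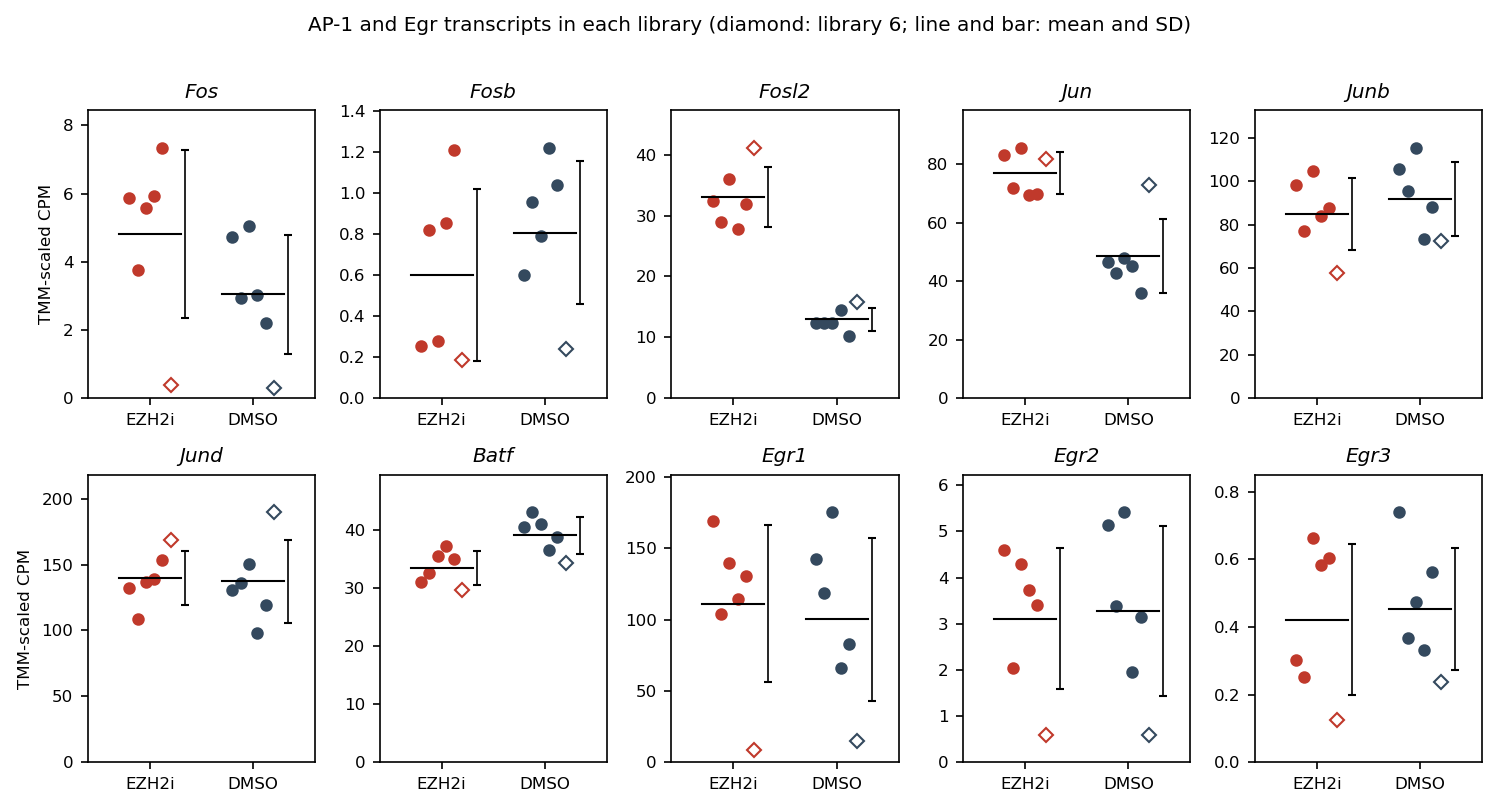
TMM-scaled CPM of each gene in the 6 EZH2i libraries (left) and the 6 DMSO libraries (right) of each panel, with a linear axis from 0. Points are libraries, open diamonds are the libraries numbered 6, lines are means and bars are SD. The groups are apart for Fosl2. The diamonds lie lowest in both groups for Fos, Fosb, Junb, Batf, Egr1, Egr2 and Egr3. On the log2 scale they are furthest below the other libraries for Fos, Egr1 and Egr2.

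Among the Fos proteins, Fosl2 (Fra-2) lacks the strong activation domain of Fos. The gene (ENSMUSG00000029135.10) lies on chromosome 5 from 32135801 to 32157842 in GRCm38, by the GENCODE annotation that also gives the positions below. All 10 genes are annotated as protein-coding. Fosl2 reached 27.9, 32.2 and 41.1 CPM in EZH2i as the lowest, median and highest value, against 10.3, 12.4 and 15.8 CPM in DMSO. The groups did not overlap, as was so, with EZH2i higher, for 7.5% of all tested genes. No member was lower in EZH2i without overlap, against 2.74% of all tested genes. EdgeR gave a log2 fold change of 1.35 (SE 0.12, adjusted p = 8.01e-06). Fosl2 was higher in 6 of 6 same-numbered pairs, by 0.95 to 1.63 on the log2 scale. Library 6 was the highest of its group in both, and the log2 fold change without both libraries numbered 6 was 1.35 (adjusted p = 5.86e-09).

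Fos, the founding member and a strong activator in a dimer with Jun, lies on chromosome 12 from 85473890 to 85477273. It was low, at 0.371, 5.72 and 7.34 CPM in EZH2i against 0.298, 2.99 and 5.05 CPM in DMSO. The lowest value of each group was that of library 6, from 12 counts in EZH2i (95% exact Poisson interval 0.192 to 0.649 CPM) and 5 counts in DMSO (0.0967 to 0.695 CPM), intervals that cover counting error only. The mean was 4.81 ± 2.46 CPM in EZH2i and 3.04 ± 1.74 CPM in DMSO, and the log2 fold change of 0.65 (SE 0.57, adjusted p = 0.482) did not pass edgeR's test. Fos was higher in EZH2i in 6 of 6 same-numbered pairs, by 0.14 to 1.70. The share of all tested genes with 6 of 6 pairs in the same direction is not given. Pair counts, here and for other genes, are therefore a description. With the replicate number as a block it was called (log2 fold change 0.67, SE 0.19, edgeR adjusted p = 0.00765), and likewise without both libraries numbered 6 (0.68, SE 0.21, adjusted p = 0.0148). Those fits called 24.7% and 23.9% of all tested genes higher.

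Fosb, a close relative of Fos, lies on chromosome 7 from 19302696 to 19310051 and was near the limit of detection. It had 5 to 28 counts per library in EZH2i and 4 to 33 in DMSO, or 0.600 ± 0.419 CPM in EZH2i and 0.807 ± 0.350 CPM in DMSO. The log2 fold change of -0.46 (SE 0.47) did not pass the test (edgeR adjusted p = 0.552). At this depth the difference was within the counting and library spread.

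Jun, the founding partner of the Jun family and able to pair with itself, lies on chromosome 4 from 95049034 to 95052222. It reached 69.5, 76.9 and 85.6 CPM in EZH2i against 36.0, 45.8 and 72.8 CPM in DMSO. The groups overlapped through DMSO library 6 alone, since the other 5 DMSO libraries stood at 36.0 to 48.0 CPM. The log2 fold change was 0.67 (SE 0.14, edgeR adjusted p = 0.00478), with Jun higher in 6 of 6 same-numbered pairs. The difference was 0.17 between the libraries numbered 6 and 0.62 to 0.96 in the other 5 pairs. Without DMSO library 6 the log2 fold change was 0.81 (adjusted p = 5.67e-05), and without both libraries numbered 6 it was 0.80 (adjusted p = 6.91e-07).

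Junb and Jund, the Jun proteins that activate less strongly in many settings, did not pass the test. Junb, on chromosome 8 from 84974484 to 84978718, reached 57.5, 85.8 and 105 CPM in EZH2i against 72.6, 91.8 and 115 CPM in DMSO. Jund, on chromosome 8 from 70698949 to 70700616, reached 109, 138 and 169 CPM in EZH2i against 97.8, 133 and 190 CPM in DMSO. The groups overlapped widely for both, with log2 fold changes of -0.11 (SE 0.15, edgeR adjusted p = 0.655) for Junb and 0.03 (SE 0.14, adjusted p = 0.919) for Jund. Junb was lowest and Jund highest in the libraries numbered 6 of both groups.

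Batf, a basic leucine zipper protein without an activation domain, pairs with Jun proteins and binds with Irf4 in lymphocytes. The gene lies on chromosome 12 from 85686669 to 85709087. It reached 29.6, 33.8 and 37.3 CPM in EZH2i against 34.4, 39.7 and 43.1 CPM in DMSO. The ranges overlapped, and Batf was lower in EZH2i in 5 of 6 same-numbered pairs. Its log2 fold change of -0.22 (SE 0.080) missed edgeR's threshold at an adjusted p of 0.0713. With the replicate block it was called lower (log2 fold change -0.22, SE 0.065, adjusted p = 0.0108), beside 24.3% of all tested genes, and without both libraries numbered 6 (adjusted p = 0.0165), beside 20.9%. Irf4 itself was not called (log2 fold change 0.10, edgeR adjusted p = 0.241) and was chosen after its value was seen.

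The Egr genes showed no difference that passed the test. Egr1, on chromosome 18 from 34859823 to 34864984, reached 8.45, 123 and 169 CPM in EZH2i against 15.1, 101 and 175 CPM in DMSO. The lowest value of each group was again library 6, and the other 5 libraries stood at 104 to 169 CPM in EZH2i and 66.2 to 175 CPM in DMSO. The log2 fold change was 0.15 (SE 0.58, edgeR adjusted p = 0.893), with 3 pairs higher and 3 lower. Without both libraries numbered 6 it was 0.17 (SE 0.19, adjusted p = 0.494), so the smaller error did not bring a call. Between same-numbered libraries Egr1 ranged from -0.83 to 0.79 on the log2 scale.

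Egr2, on chromosome 10 from 67535475 to 67542188, reached 0.588, 3.57 and 4.60 CPM in EZH2i against 0.595, 3.27 and 5.42 CPM in DMSO. Library 6 was lowest in both groups, with 19 counts in EZH2i (95% exact Poisson interval 0.354 to 0.918 CPM) and 10 in DMSO (0.286 to 1.10 CPM). The log2 fold change was -0.09 (SE 0.49, edgeR adjusted p = 0.927). Egr3, on chromosome 14 from 70077203 to 70082614, had 4 to 19 counts per library in EZH2i and 4 to 16 in DMSO. That is 0.422 ± 0.223 CPM in EZH2i and 0.452 ± 0.180 CPM in DMSO, and a difference was not detectable at this depth (log2 fold change -0.12, SE 0.40, adjusted p = 0.873).

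**Figure D2:**
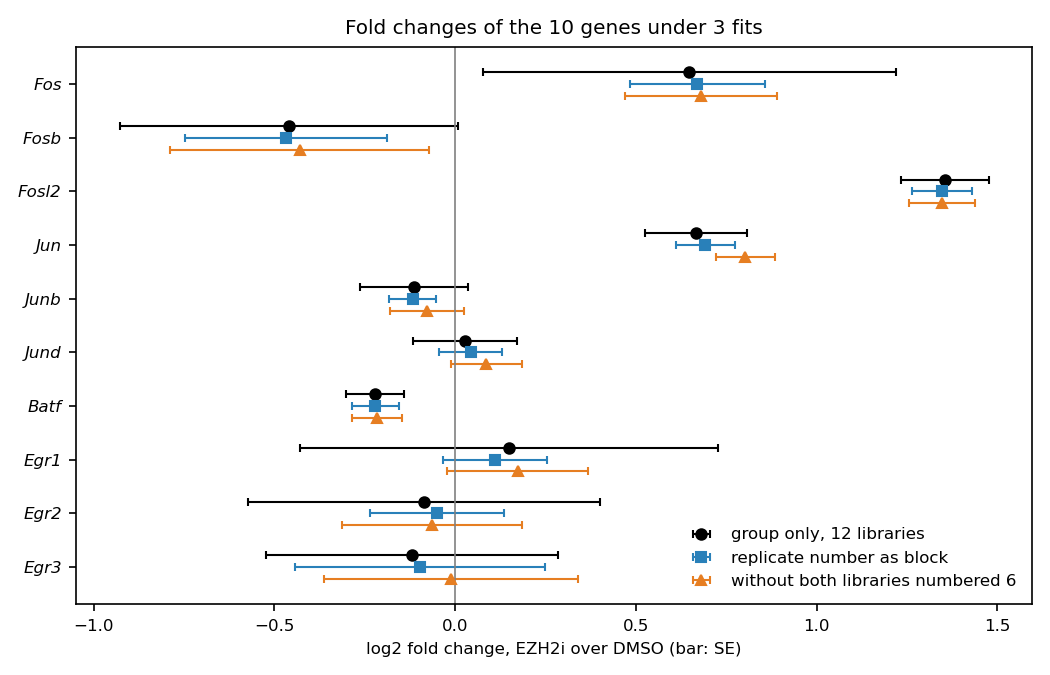
Log2 fold change of EZH2i over DMSO for each gene (points) with its SE (bars) in the fit with the group alone, with the replicate number as a block and without both libraries numbered 6. Fosl2 and Jun stand clear of 0 in all 3 fits, and the SE of Fos fell to 0.19 with the block, against 0.57 with the group alone.

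Levels between genes were compared per length, as CPM per kilobase of merged exons (RPKM). Jund ranked first in both groups, with a median of 82.7 RPKM in EZH2i and 79.8 RPKM in DMSO, and its range lay above that of Junb in each group, whose medians were 37.3 RPKM in EZH2i and 39.9 RPKM in DMSO. Egr1, Jun and Batf followed at medians of 27.4, 24.1 and 24.1 RPKM in EZH2i and 22.4, 14.4 and 28.2 RPKM in DMSO. The ranges of these 3 overlapped in EZH2i, while in DMSO those of Jun and Batf did not. Egr1 and Junb overlapped in both groups. Fosl2 came next, with 3.32 RPKM in EZH2i and 1.28 RPKM in DMSO, before Fos with 2.43 RPKM in EZH2i and 1.27 RPKM in DMSO, and Egr2 with 1.05 RPKM in EZH2i and 0.962 RPKM in DMSO. The ranges of Fosl2 and Fos overlapped in both groups, with or without library 6. In DMSO the order of these medians rested on library 6, since without it they were 1.28 RPKM for Fosl2 and 1.29 RPKM for Fos. The ranges of Fos and Egr2 also overlapped in both groups. Without library 6, Fos (1.59 to 3.12 RPKM) and Egr2 (0.603 to 1.35 RPKM) did not overlap in EZH2i, while in DMSO Fos (0.936 to 2.15 RPKM) and Egr2 (0.577 to 1.59 RPKM) did. Egr3 and Fosb were lowest and overlapped, with medians of 0.101 and 0.0880 RPKM in EZH2i and 0.0955 and 0.140 RPKM in DMSO.

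**Figure D3:**
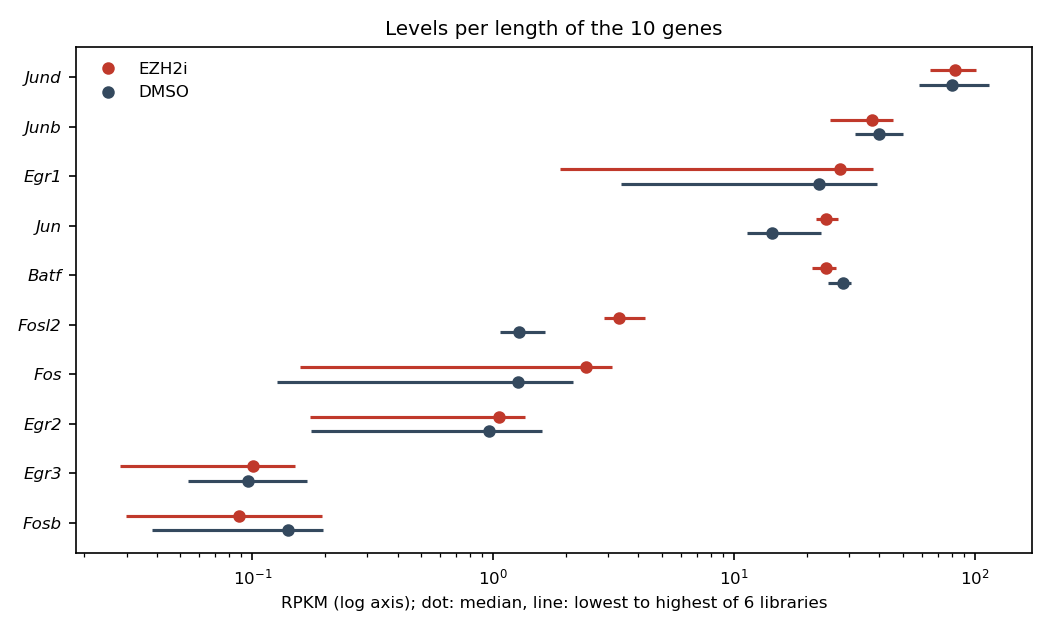
RPKM of each gene on a log axis, as the median (dot) and the lowest to highest value (line) of the 6 EZH2i libraries (upper) and the 6 DMSO libraries (lower). Jund ranks first in both groups at medians of 82.7 RPKM in EZH2i and 79.8 RPKM in DMSO. Fosl2 lies at 3.32 in EZH2i and at 1.28 in DMSO, where Fos lies at 1.27 and the order turns without library 6.

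Shares within families were compared per length and were not tested. Fosl2 made up 49.9% to 63.4% of the summed RPKM of Fos, Fosb and Fosl2 in EZH2i libraries 1 to 5. In DMSO libraries 1 to 5 it made up 36.0% to 50.1%, and the ranges overlapped slightly. In the libraries numbered 6, where Fos was low, the share of Fosl2 was 95.8% in EZH2i and 90.9% in DMSO. Jun made up 14.4% to 18.6% of its family with Junb and Jund in EZH2i, against 9.33% to 13.6% in DMSO, ranges that did not overlap. Egr1 made up 90.4% to 97.2% of its family in EZH2i and 93.6% to 96.1% in DMSO, with the DMSO range inside that of EZH2i. The sum of the Fos family was 4.44 to 6.62 RPKM in EZH2i and 1.80 to 3.55 RPKM in DMSO, and that of the Jun family 121 to 155 RPKM in EZH2i and 105 to 168 RPKM in DMSO.

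Spread within a group differed widely between the members. For Fos, Egr1 and Egr2 the SD of log2 CPM was 1.52, 1.62 and 1.06 in EZH2i and 1.38, 1.27 and 1.12 in DMSO, against medians over all tested genes of 0.229 in EZH2i and 0.219 in DMSO. The SD was larger than that of at least 99.2% of all tested genes for each of the 3 in both groups. For Batf the SD was 0.126 in EZH2i and 0.119 in DMSO, and for Fosl2 0.206 in EZH2i and 0.214 in DMSO, below the median of all tested genes. Without the libraries numbered 6 the SD of Egr1 was 0.268 in EZH2i and 0.572 in DMSO, which still exceeded that of 88.4% of tested genes in EZH2i and 96.0% in DMSO. For Fos it was 0.347 in EZH2i and 0.490 in DMSO, exceeding 93.4% and 94.2% of tested genes in those groups. Fosb and Egr3, at a few counts per library, had SDs of 0.956 and 0.740 in EZH2i and 0.733 and 0.485 in DMSO, which include counting error.

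The log2 CPM of library 6 minus the mean of the other 5 was -3.64 for Fos, -3.93 for Egr1 and -2.42 for Egr2 in EZH2i. In DMSO it was -3.21 for Fos, -2.86 for Egr1 and -2.44 for Egr2. Of all tested genes, 48, or 0.409%, were at least 4-fold lower in library 6 in both groups, and 3 of these were the members Fos, Egr1 and Egr2. Library 6 was the lowest of its group in both groups for 7 of 10 members, against 31.0% of all tested genes, and the highest in both for 2, Fosl2 and Jund, against 28.5%. Jun was not among either. Of the 16 other immediate early genes, 8 were lowest in library 6 in both groups. Nr4a1, an orphan nuclear receptor induced through the antigen receptor, stood at 5.14 CPM in EZH2i library 6 against 23.1 to 25.3 CPM in the others, and at 5.30 CPM in DMSO library 6 against 11.9 to 19.1 CPM.

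**Figure D4:**
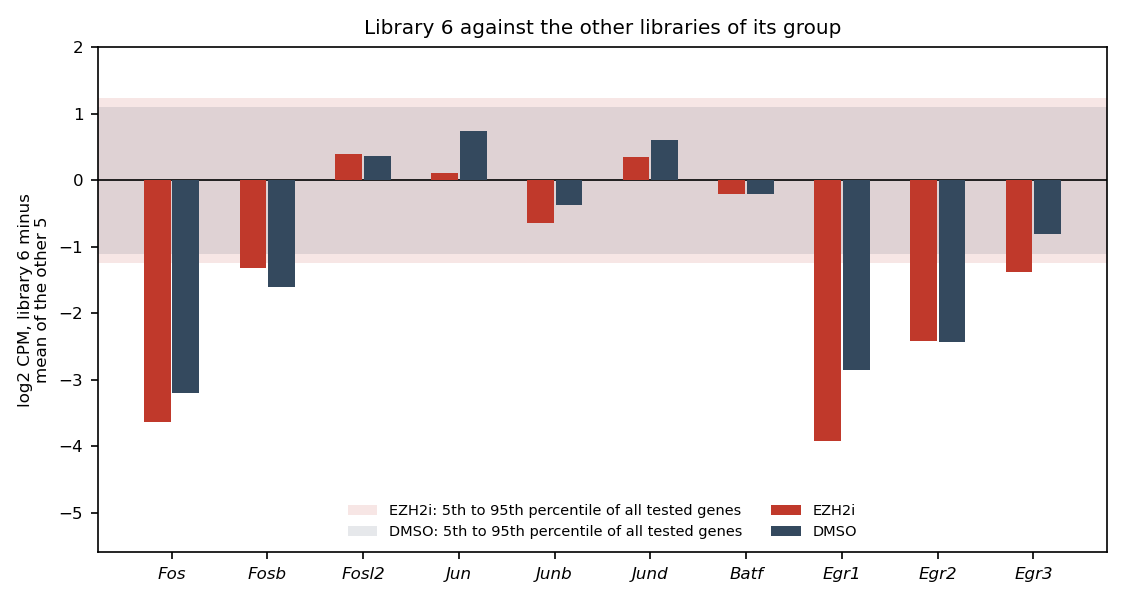
Difference in log2 CPM between library 6 and the mean of the other 5 libraries of its group, for each gene, in EZH2i (left bars) and DMSO (right bars). Shaded bands span the 5th to 95th percentile of all tested genes, and the bars of Fos, Egr1 and Egr2 reach far below both bands, to -3.93 for Egr1 in EZH2i.

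Not all activation genes were low in the libraries numbered 6. Il2ra, the high-affinity interleukin 2 receptor chain, stood at 872 CPM in EZH2i library 6 against 271 to 318 CPM in the other EZH2i libraries, and at 889 CPM in DMSO library 6 against 351 to 423 CPM. Myc, which drives growth of activated cells, stood at 507 CPM against 192 to 284 CPM in EZH2i and at 511 CPM against 162 to 351 CPM in DMSO. Of 8 tested heat shock genes, 7 were highest in library 6 in both groups. Hspd1, a mitochondrial chaperone, stood there at 666 CPM against 176 to 235 CPM in EZH2i and at 701 CPM against 228 to 266 CPM in DMSO. Il2ra, Myc, Hspd1 and Nr4a1 were chosen after their values were seen. Whether these differences have a part in the low Fos and Egr values was not tested.

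Of 8 tested genes of the remaining AP-1 family, 2 rose and 0 fell, with a median log2 fold change of 0.29. For this and the lists that follow, 13.3% of all tested genes were called higher and 6.05% lower, or 24.7% and 24.3% with the block, and counts of so few genes are given as a description. Jdp2, a repressor that pairs with Jun proteins, stood at 17.5 ± 4.29 CPM in EZH2i and 6.55 ± 1.04 CPM in DMSO (log2 fold change 1.41, SE 0.18, edgeR adjusted p = 0.000135), higher in 6 of 6 pairs. Atf3, a stress-induced family member, stood at 4.04 ± 0.901 CPM in EZH2i and 2.33 ± 0.634 CPM in DMSO (0.79, adjusted p = 0.0152). With the block 4 rose. Fosl1, the relative of Fosl2, and Batf2 were too low to test, with 66 and 7 counts in all EZH2i libraries together and 23 and 0 in all DMSO libraries.

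Partners and rivals of AP-1 were called higher in 2 of 8 tested genes and lower in 0, with a median of 0.12. Maf, a related leucine zipper factor, was at 1.62 ± 0.276 CPM in EZH2i and 0.423 ± 0.231 CPM in DMSO (log2 fold change 1.94, SE 0.35, edgeR adjusted p = 0.00177). Irf8, a relative of the Batf partner Irf4, was at 97.3 ± 5.37 CPM in EZH2i and 57.4 ± 6.89 CPM in DMSO (0.76, adjusted p = 3.07e-05). With the block 3 of these genes were higher and 1 was lower, the NFAT factor gene Nfatc3 (log2 fold change by group -0.21, adjusted p with the block 0.00367, lower in 6 of 6 pairs). Of the Nab corepressors that bind Egr proteins, Nab1 and Nab2 were tested, with a median of -0.06. Neither was called by edgeR, DESeq2 or limma-voom, or passed an unadjusted p under 0.05, with Nab2 at 33.0 ± 3.64 CPM in EZH2i and 35.2 ± 3.51 CPM in DMSO (adjusted p = 0.529). Egr4 was too low to test.

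Upstream of the members, the list of serum response factor, its cofactors and the cyclic AMP factors had 1 of 8 tested genes higher and 1 lower, with a median of -0.03. Srf, which drives Fos and Egr transcription in many cells, fell to 50.9 ± 3.61 CPM in EZH2i, against 61.6 ± 5.63 CPM in DMSO (log2 fold change -0.28, SE 0.075, edgeR adjusted p = 0.0202), and was lower in 6 of 6 pairs. Its call was lost under upper-quartile scaling (-0.21, adjusted p = 0.0503) and without EZH2i library 4 (-0.25, adjusted p = 0.0680), which leaves 0 of the list called lower. Crem, which encodes activators and repressors acting at cyclic AMP response elements, stood at 47.9 ± 9.95 CPM in EZH2i and 32.0 ± 3.05 CPM in DMSO (0.58, adjusted p = 0.0110). Crem was 28.1 CPM in EZH2i library 6 and 27.9 CPM in DMSO library 6. With the block 2 of this list rose and 2 fell.

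In the MAP kinase cascade 4 of 16 tested genes rose and 1 fell, with a median of 0.07. The kinase Braf, at 50.6 ± 4.998 CPM in EZH2i and 33.8 ± 2.76 CPM in DMSO, had a log2 fold change of 0.58 (SE 0.082, edgeR adjusted p = 0.000282). Mapk8, which encodes the Jun kinase JNK1, had 0.36 (adjusted p = 0.00570), the p38 kinase Mapk14 0.31 (adjusted p = 0.0241, lost without library 3 or 5 of either group, at up to 0.0609) and the GTPase Nras -0.35 (adjusted p = 0.00406). Mapk9, the JNK2 gene, was the other that rose. With the block 3 of these genes fell.

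Of 10 tested feedback inhibitors of the cascade 0 were called by edgeR, DESeq2 or limma-voom, with a median of 0.10, while 1 was higher and 1 lower at an unadjusted p under 0.05. The one with the smallest p was the phosphatase Dusp2, at 41.8 ± 6.76 CPM in EZH2i and 52.9 ± 9.73 CPM in DMSO (log2 fold change -0.34, SE 0.13, edgeR adjusted p = 0.0968). With the block Dusp2 was called lower (adjusted p = 0.000469), and 2 of the list rose and 2 fell. Of the 16 other immediate early genes, 3 rose and 0 fell, with a median of 0.11. The log2 fold change was 0.63 for the nuclear receptor gene Nr4a2 (edgeR adjusted p = 0.0113), and Ier5 and Ier3, small immediate early genes, had 0.43 (adjusted p = 0.00197) and 0.43 (adjusted p = 0.0266). Between the libraries numbered 6, the log2 fold change of Nr4a2 was 0.14. The call of Ier3 was lost without EZH2i library 1, 3 or 4 or DMSO library 3 or 5 (adjusted p up to 0.0677). With the block 7 rose and 2 fell.

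Genes named as Egr targets or as genes of anergy, an unresponsive state, were called higher in 3 of 11 tested and lower in 0, with a median of 0.35. The death ligand Fasl had a log2 fold change of 1.12 (SE 0.25, edgeR adjusted p = 0.00618). The cytokine signalling inhibitors Socs1, at 0.97 (adjusted p = 0.0143), and Socs3, at 0.35 (adjusted p = 0.0485), also rose, and Socs3 was higher in 5 of 6 pairs. The call of Socs3 held in 6 of 20 alternatives. It was lost under RLE scaling (adjusted p = 0.0512), with no filter on low counts (0.0531), under limma-voom (0.0649), which called 2 of the list higher, and with any single library left out other than EZH2i library 6 (up to 0.114). The Egr genes themselves were not called. With the block 6 of this list rose and 3 fell. Of 7 tested AP-1 target genes of activated T cells 0 were called by edgeR, DESeq2 or limma-voom, with a median of 0.30, while 1 was higher at an unadjusted p under 0.05. The smallest p was that of the chemokine Ccl4, at 1.59 ± 0.550 CPM in EZH2i and 0.921 ± 0.410 CPM in DMSO (adjusted p = 0.124, and 0.0127 under the block). Under the block 3 of this list were higher, Ccl4, Ccl3 and Gzmb, and 2 were lower. These were Il2ra, with a log2 fold change of -0.25 in the fit by group, and the cytokine gene Tnf, with -0.60 (adjusted p with the block 0.000302 for Il2ra and 0.000310 for Tnf), both lower in 6 of 6 pairs and, like Ccl3, Gzmb and Nfatc3, named after their values were seen. Il2, Ifng, Il3 and Timp1 were too low to test. Of 8 tested heat shock genes 1 fell, the cochaperone Dnajb1 (-0.32, adjusted p = 0.0102), with a list median of -0.20, and 6 fell with the block.

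**Figure D5:**
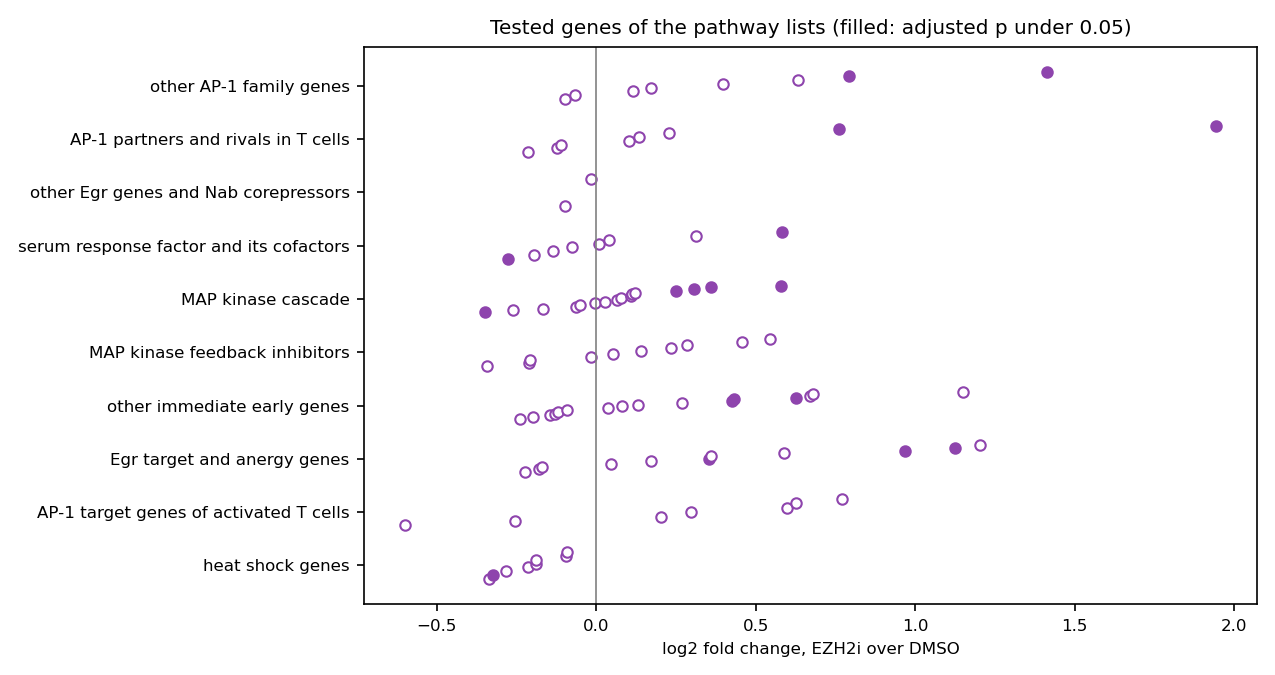
Log2 fold change of EZH2i over DMSO for each tested gene of the 10 pathway lists (points), filled where the adjusted p was under 0.05. Filled points lie mostly right of 0, up to 1.94 for Maf, and no gene of the feedback inhibitors or of the AP-1 targets is filled.

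Genes outside the members whose values across libraries were most like those of Fos were ranked by Pearson r of log2 CPM after the mean of each group was subtracted. Over 12 libraries the 5 highest for Fos were Stard10 (r = 0.988), 1700097N02Rik (0.985), Eml2 (0.984), Zfp219 (0.983) and Ptov1 (0.983). All share the low libraries numbered 6, and over the 10 other libraries r was 0.876, 0.793, 0.828, 0.729 and 0.760 in the same order. For Fosl2, the member with the largest fold change, they were 1810026J23Rik (0.932), Mief2 (0.922), Snx18 (0.917), Enc1 (0.910) and Tob2 (0.908), with r of 0.849, 0.843, 0.854, 0.827 and 0.848 over the 10. These are the highest of all tested genes and carry no test.

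Ezh2, the gene of the inhibited enzyme, stood at 234 ± 26.6 CPM in EZH2i and 278 ± 29.4 CPM in DMSO (log2 fold change -0.25, SE 0.094, edgeR adjusted p = 0.0833). With the block the adjusted p was 0.000757. An inhibitor of the enzyme need not change its transcript, so this value does not check the labels.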

How the data were processed

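RNA of 12 libraries was measured per gene symbol. Per the labels' protocols, a stranded mRNA kit and single-end reads were used. The authors deposited raw counts, 1 table per library. Per the submitters' processing notes, the tools were TopHat2 2.1.1, featureCounts, Trimmomatic 0.38, SAMtools 1.9 and FastQC 0.11.7, with build GRCm38. The sources used here do not state the annotation, the strand setting or how multiply mapped reads were handled. Reads shared between overlapping or antisense genes therefore cannot be told apart.

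Genes were kept with filterByExpr, scaled with TMM and tested with edgeR 4.0.16 (two-sided quasi-likelihood test, group only, all 12 libraries) in R 4.3.3, with p-values adjusted by Benjamini-Hochberg over 11727 genes. CPM use TMM-scaled totals, log2 CPM a prior count of 2, and RPKM the merged exons of GENCODE M21. SE is the log2 fold change over the square root of F.

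Alternatives were RLE and upper-quartile scaling, 2 filters, DESeq2 1.42.0, limma 3.58.1 (voom), a replicate block and libraries left out. Both groups carry the numbers 1 to 6, whose meaning the labels do not give. Deviations of same-numbered libraries correlated with r of 0.213, 0.445, 0.286, 0.527, 0.317 and 0.847, all over the limit of 0.1, so the numbers were taken to pair libraries; this comes from the data. Without number 6 the lowest r was 0.0371, under that limit, so the pairing rests in part on number 6. Over all 6 numbers, the libraries of 3 were each other's best match. Whether the numbers pair libraries is therefore not settled, and fits with the block and counts of pairs depend on it. Replicates differed beyond sampling noise (chi-square per degree of freedom at least 4.79).

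The members and lists were chosen with earlier results of these data known. All members were named, and of each list up to 4 called genes by size, or, with 0 called, the one of smallest p. For likeness, the 5 genes closest to Fos and to the member of largest fold change were named.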

Additional observations from a re-analysis of the deposited data

Results flagged for a closer look

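Of 20 groups of 6 CPM values, 10 genes in EZH2i and in DMSO, 1 had a value that passed Dixon's check for outliers. The check was run on CPM and not on log2 CPM. Jun in DMSO library 6 stood at 72.8 CPM, against 36.0 to 48.0 CPM in the other 5 DMSO libraries, and its gap to the nearest of them was 0.674 of the group's range, above Dixon's critical value for 6 samples. Chance gives such a value in about 1 of 20 groups. In EZH2i, library 6 had 81.7 CPM of Jun, within the 69.5 to 85.6 CPM of the other 5.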

How the results depend on the processing

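Fosl2 and Jun were called higher in all 20 alternatives, with log2 fold changes of 1.28 to 1.42 for Fosl2 and 0.58 to 0.81 for Jun. Batf was called lower in 6 of 20, and the members called lower were then 1 in place of 0: with RLE size factors (adjusted p = 0.0495), with DESeq2 (0.0162), with the replicate block, without replicate 6 of both groups, and among the single libraries left out, where the count ranged from 0 to 1, with EZH2i library 4 left out (0.0493) and with DMSO library 6 left out (0.0333). Its adjusted p ranged up to 0.235. Fos was called in 2 of 20, with the replicate block and without replicate 6 of both groups, and its log2 fold change ranged from 0.42 to 0.89 over single libraries left out. The members called higher were 3 in those 2 settings, within 1.5 times of 2.

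With the replicate block 5741 genes were called in place of 2266, and without replicate 6 of both groups 5270. Leaving out single libraries gave 1732 to 4079, the highest without EZH2i library 6. Of the calls, 68.7% were higher in EZH2i as reported, 83.8% under upper-quartile scaling, 50.4% under the block and 53.4% without replicate 6 of both groups. The block changed no call of a member other than Fos and Batf. Of the 17 named list genes that were called, 13 kept their call in all 20 alternatives, while Srf kept it in 18, Mapk14 in 16, Ier3 in 15 and Socs3 in 6. With single libraries left out, signs turned without a call for Jund (-0.055 to 0.14), Egr1 (-0.080 to 0.39), Egr2 (-0.30 to 0.13) and Egr3 (-0.31 to 0.085). The median SD of log2 CPM over the members was 0.523 in EZH2i and 0.411 in DMSO, with a prior count of 0.5 0.595 and 0.445, and without the libraries numbered 6 0.225 and 0.305. Fosb and Egr3, with at most 33 counts per library, are limited by depth. The cause of these changes was not tested.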
